A study of Mus musculus with 2 samples.

Results

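The miR-15/16 family is a set of mouse miRNAs whose guide strands begin with the same bases, and miR-503 is a close relative. The members were chosen by name, as the 7 guide strands mmu-miR-15a-5p, mmu-miR-15b-5p, mmu-miR-16-5p, mmu-miR-195a-5p, mmu-miR-322-5p, mmu-miR-497a-5p and mmu-miR-503-5p, and all 7 were among the 1881 mouse miRNAs on the array. The samples were exosomes from the culture supernatant of LLC cells, a mouse Lewis lung carcinoma cell line, and no genetic change or treatment of the cells was given in the labels. Their RNA was hybridized to 2 Agilent miRNA arrays with Cy3 as the only dye, 1 array for each of 2 replicates from independent experiments. With 1 group there was no comparison between conditions and no test, and every value describes exosomes of this cell line alone. A miRNA array holds no protein marker against which the exosome preparation could be checked.

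A miRNA finds its target mRNAs mainly through its seed, the bases near its 5′ end, so members of a seed family can bind many of the same mRNAs. The miR-15/16 family is known for repressing genes that drive the cell cycle and genes that protect cells from death, among them *Bcl2* and several cyclins. *Mir15a* and *Mir16-1* lie in the same transcript, *Dleu2*, in a region that is often lost in human chronic lymphocytic leukaemia. miR-16 is widely expressed and is often measured in blood plasma and other body fluids, while miR-322 and miR-503 come from a shared cluster on the X chromosome and are known from muscle differentiation and cell cycle exit.

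The mature sequences are printed because they show what the members share and where they part. They were taken from RefSeq (assembly GRCm38.p6), which held all 7, and are written 5′ to 3′ with the seed, bases 2 to 8, in capitals.
mmu-miR-15a-5p: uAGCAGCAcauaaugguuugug
mmu-miR-15b-5p: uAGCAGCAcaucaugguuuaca
mmu-miR-16-5p: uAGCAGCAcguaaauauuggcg
mmu-miR-195a-5p: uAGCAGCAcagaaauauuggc
mmu-miR-322-5p: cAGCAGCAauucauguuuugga
mmu-miR-497a-5p: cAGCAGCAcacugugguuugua
mmu-miR-503-5p: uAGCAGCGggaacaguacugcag
The seed AGCAGCA was shared by 6 members, and miR-503-5p carried AGCAGCG. Counted from the 5′ end without gaps, miR-16-5p and miR-195a-5p had the same base at 19 of 21 positions. For miR-15a-5p and miR-15b-5p it was 18 of 22, and after base 8 it was 10 of 14. miR-503-5p matched the other members at 10 to 12 positions. The members therefore differ mainly in their 3′ ends, and whether a probe for one of them also bound another was not tested, for which probe sequences would be needed.

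The genes lay at 4 places in GRCm38.p6. On chromosome 14, within the span of the long noncoding RNA *Dleu2*, miR-15a-5p was at chr14:61632075-61632096 and the copy of miR-16-5p from *Mir16-1* at chr14:61631936-61631957, both on the minus strand. On chromosome 3, within the span of *Smc4*, which codes for a condensin subunit, miR-15b-5p was at chr3:69009775-69009796 and the copy of miR-16-5p from *Mir16-2* at chr3:69009918-69009939, both on the plus strand. On chromosome 11, miR-497a-5p was at chr11:70234730-70234751 and miR-195a-5p at chr11:70235062-70235082, on the plus strand. On the X chromosome, within the span of the long noncoding RNA *C430049B03Rik*, miR-322-5p was at chrX:53054306-53054327 and miR-503-5p at chrX:53054027-53054049, on the minus strand. The annotation used gave the spans of the host genes but not whether a miRNA was in an exon or an intron. Both copies of miR-16 give the same mature strand, so the array could not separate them.

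Of the 7 members, miR-15b-5p was detected on both arrays, miR-322-5p on the array of replicate 2 only, and the other 5 on neither. A miRNA was called detected by the scanner software when the total signal of at least 1 of its probes exceeded 3 times the error of that signal. By this call, 216 of all 1881 miRNAs were detected on both arrays, a background of 11.5%, and 100 of the 775 whose names end in -5p, a background of 12.9%. The count of 1 in 7 was close to these shares. Each member had 2 probes of 15 spots each, and spots that the software marked as outliers were left out. Negative control spots had a mean intensity of 0.570 in replicate 1 and 0.760 in replicate 2, and the brightest of them reached 9.45 and 9.35.

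mmu-miR-15b-5p gave the highest signal of the family. Its mean intensity was 9.33 in replicate 1 and 14.6 in replicate 2, and 0 of its spots were at or below 0. Its probes were unequal. The first probe averaged 4.76 and 7.69 intensity units, and at 1.57 and 2.43 times its error it stayed under the detection threshold on both arrays. The second probe averaged 13.9 in replicate 1, with spots between 5.54 and 18.6, and 21.6 in replicate 2, with spots between 17.4 and 26.4. It reached 4.19 and 5.76 times its error. All 15 spots of the second probe in replicate 2, and 14 in replicate 1, were brighter than every negative control spot. The detection of miR-15b-5p therefore rested on 1 of its 2 probes.

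mmu-miR-322-5p, from the X-linked cluster, was next. Its mean intensity was 6.71 in replicate 1 and 7.73 in replicate 2. The second probe, with means of 8.47 and 9.76, had a signal of 2.71 times its error in replicate 1 and 3.02 times in replicate 2, just below and just above the threshold of 3. The first probe reached 1.62 and 1.83 times its error. The 2 arrays thus gave nearly the same intensity for miR-322-5p on either side of the threshold, and a call in replicate 2 alone does not mean that the replicates differed.

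**Figure D1:**
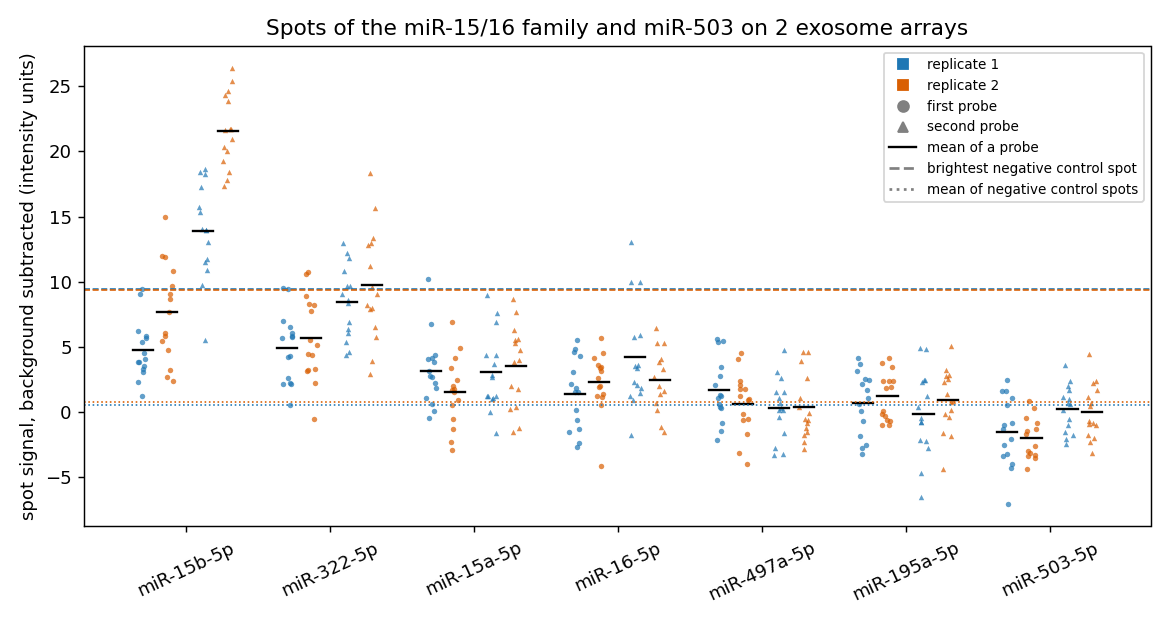
Background-subtracted intensity of every spot used for the 7 members, with circles for the first probe and triangles for the second, blue for replicate 1 and orange for replicate 2, and a black bar at the mean of each probe. Dashed lines mark the brightest negative control spot (9.45 and 9.35) and dotted lines the mean of the negative controls. For the second probe of miR-15b-5p, with means of 13.9 and 21.6, all spots but 1 of replicate 1 lie above the dashed lines, miR-322-5p reaches them, and miR-497a-5p, miR-195a-5p and miR-503-5p scatter around the dotted lines.

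The 2 best known guide strands, miR-15a-5p and miR-16-5p, were not detected on either array. The mean intensity of miR-15a-5p was 3.11 in replicate 1 and 2.56 in replicate 2. For miR-16-5p it was 2.82 and 2.38. No probe of either exceeded 1.39 times its error. Their spots were nevertheless above background more often than those of the negative controls. The software marked 43.3% of the miR-15a-5p spots on each array as positive and significant against the background, and 43.3% and 44.8% of the miR-16-5p spots, while it did so for 17.5% and 20.8% of the negative control spots. For miR-16-5p, the brightest spot reached 13.1 intensity units, and 6 of 30 spots in replicate 1 were at or below 0.

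The other 3 members had means near that of the negative controls or below it. miR-497a-5p had mean intensities of 1.01 and 0.511, and 20% and 16.7% of its spots were positive and significant. miR-195a-5p, which shares the seed and most other bases of miR-16-5p, had 0.303 and 1.08, with 16.7% on each array. miR-503-5p, the relative with the other seed, was negative on both arrays after background subtraction, at -0.604 and -0.931, with 3.33% and 3.45%. Together the 5 members that were detected on neither array had probe signals between -0.65 and 1.39 times their error, and 0 of their spots were well above background. These values say that their signal was not detectable on these arrays, and not that the miRNAs were absent from the exosomes.

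To set the arrays side by side, levels were computed as the log2 of the signal relative to the 75th percentile among the 393 probes that both arrays detected. A level of 0 is then a signal at that percentile, and a step of 1 is a factor of 2 in signal. Different probes bind with different strength, so levels order the signals and not the amounts of the miRNAs. On this scale miR-15b-5p had a level of -2.73 in replicate 1 and -1.73 in replicate 2 (-2.23 ± 0.71, SD, n = 2). miR-322-5p had -3.14 and -3.07 (-3.11 ± 0.05, SD, n = 2). On this scale these ranges did not overlap, and miR-15b-5p was the higher on both arrays. However, 1 spot of miR-322-5p in replicate 2 was below 0 and was set to the lowest positive value. Its first probe therefore had a lower level in replicate 2 (-3.96 against -3.64) although its mean intensity was higher (5.70 against 4.94). The SD of 0.05 and the gap between the ranges depend on that spot. With spots averaged before log2, the mean levels were -2.13 for miR-15b-5p and -2.69 for miR-322-5p. miR-15a-5p followed with -5.65 and -7.01, and miR-16-5p with -7.24 and -5.73. Their order turned between the arrays, so these neighbours did not differ beyond their spread. The same held for miR-497a-5p, with -9.11 and -11.81, and miR-195a-5p, with -11.26 and -9.94. miR-503-5p was the lowest on both arrays, with -13.02 and -14.97. Levels depend on how spots at or below 0 are treated, also for detected miRNAs that have such spots. Below the detection threshold the mutual distances of the levels have no meaning as folds.

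Among the 216 detected miRNAs, miR-15b-5p was a dim one. It ranked 177 by mean level, 191 in replicate 1 and 129 in replicate 2, and the median level of the 216 was -1.46. Its replicates also differed more than was usual. The level of miR-15b-5p was 1.0 higher in replicate 2, whereas the median absolute difference over the 216 miRNAs was 0.35, and 28 of them differed by more. Over the 216, the median difference was 0.21 and 143 were higher in replicate 2. This general direction was set by the scaling, since without it the median difference was -0.12 and 70 were higher in replicate 2. For miR-15b-5p the direction did not turn, and without the scaling its difference was 0.67. The nearest miRNAs by levels on the 2 arrays were miR-7686-5p, with -2.70 and -1.88, miR-1943-3p, with -2.47 and -1.89, and miR-7070-5p, with -2.58 and -2.04, at Euclidean distances of 0.15, 0.31 and 0.34 on the log2 scale. With 2 arrays of 1 group, nearness says only that the signals were alike.

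**Figure D2:**
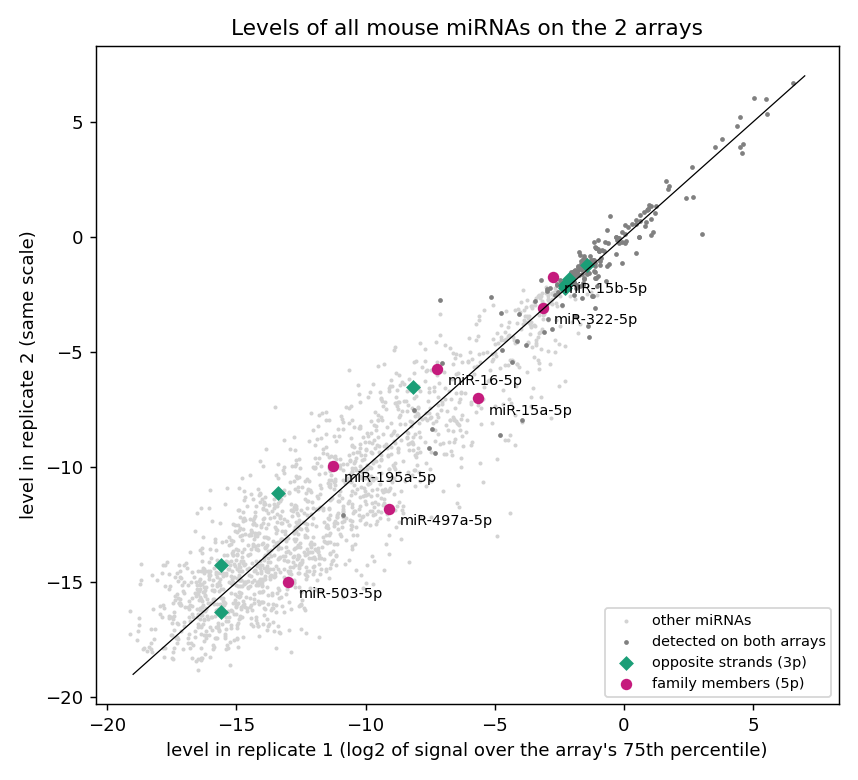
Level of each of the 1881 mouse miRNAs in replicate 1 (x axis) against replicate 2 (y axis), as log2 of the signal over the 75th percentile of the array, with the line of equal levels. Magenta circles are the 7 members, green diamonds the 8 opposite strands, dark grey points the other miRNAs detected on both arrays and light grey points the rest. miR-15b-5p (-2.73, -1.73) sits among the dimmer detected miRNAs and above the line, miR-322-5p (-3.14, -3.07) lies close to the line, and miR-503-5p (-13.02, -14.97) is deep in the undetected points.

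Each precursor also yields a strand from its other arm, the 3p strand, which is usually the less abundant one and is often called the passenger. Of the 8 opposite strands on the array, 4 were detected on both arrays, against a background of 8.92% (70 of 785) for all miRNAs whose names end in -3p. They came from miR-15a, from both copies of miR-16 and from miR-195a, and the guide strands of these precursors, miR-15a-5p, miR-16-5p and miR-195a-5p, were detected on neither array. The other 4, from miR-15b, miR-322, miR-497a and miR-503, were detected on neither array. For the *Mir15a*, *Mir16* and *Mir195a* precursors the array thus called the 3p strand and not the 5p strand, and for *Mir15b* the reverse. Since the strands have different probes, their intensities do not give the ratio of the strands.

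miR-195a-3p was the brightest of the opposite strands. Its mean intensity was 19.4 in replicate 1 and 17.7 in replicate 2, both its probes reached 4.58 to 6.11 times their error, and its level was -1.42 and -1.20 (-1.31 ± 0.16, SD, n = 2), rank 94 of 216. miR-15a-3p had intensities of 11.9 and 11.8, and all 4 of its probes were detected on both arrays. Its level was -2.14 and -1.83 (-1.99 ± 0.22, SD, n = 2). The 3p strands of the 2 miR-16 copies, which differ in sequence and so have probes of their own, were alike in signal. miR-16-2-3p had intensities of 10.8 and 9.80 and a level of -2.19 ± 0.12 (SD, n = 2). miR-16-1-3p had 10.8 and 9.61 and a level of -2.24 ± 0.06 (SD, n = 2). Of the 4 probes of miR-16-1-3p, 3 were detected in replicate 1 and 2 in replicate 2. Both probes of miR-16-2-3p were detected in replicate 1, and 1 of them in replicate 2.

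The signal of these 4 strands was spread over nearly all of their spots. Of 230 spots on both arrays, 229 were positive and significant, which was 99.6%, and 63 were well above background. Most of these 63 were spots of miR-195a-3p. Their replicate differences were small, with levels 0.09 to 0.31 higher in replicate 2. In raw intensity all 4 were slightly lower in replicate 2, so their direction between the arrays came from the scaling. The 4 opposite strands that were not detected had probe signals between -0.69 and 0.92 times their error, and 11.3% of their spots were positive and significant. The brightest of them, miR-15b-3p, had intensities of 2.19 and 1.79.

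**Figure D3:**
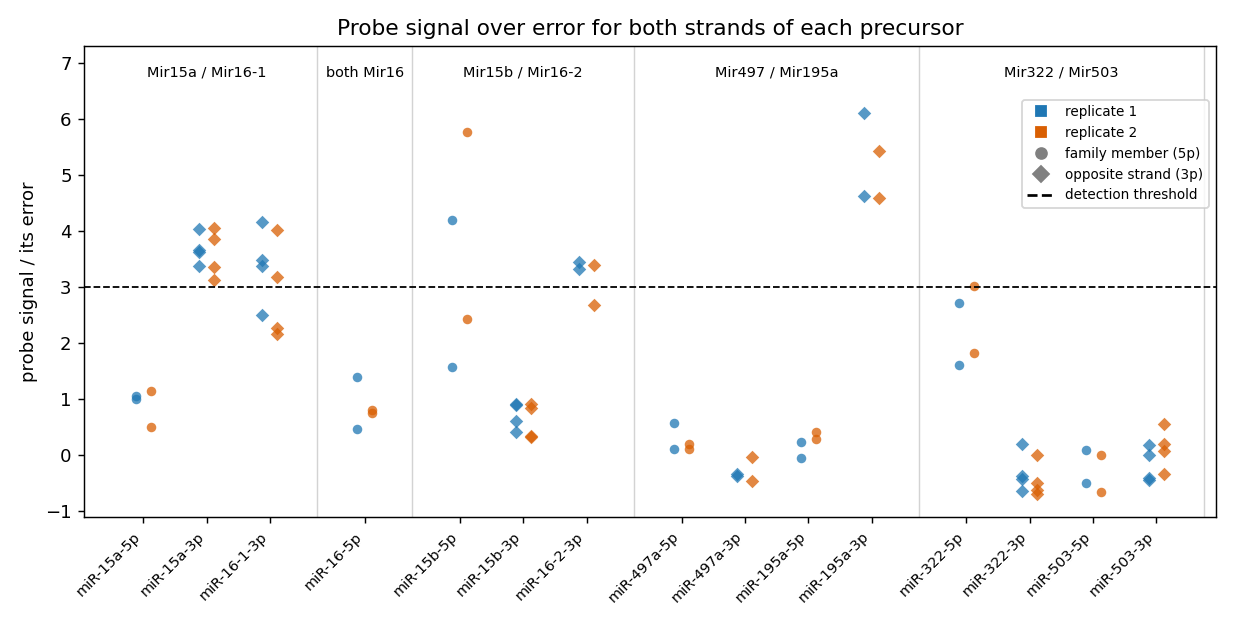
Total signal of each probe divided by its error, for the guide strands (circles) and the opposite strands (diamonds) of each cluster, with replicate 1 in blue and replicate 2 in orange. The dashed line is the detection threshold of 3. The diamonds of miR-195a-3p (4.58 to 6.11) and miR-15a-3p lie above the line on both arrays. The circles of miR-15a-5p, miR-16-5p and miR-195a-5p lie at or below 1.39. For miR-322-5p, the circles of the second probe straddle the line at 2.71 and 3.02, and those of the first lie below it at 1.62 and 1.83.

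The sequences of the opposite strands are printed because the 4 that were detected have a stretch in common. They are from the same RefSeq table, 5′ to 3′, with the letters UGUGCUGC in capitals where they occur.
mmu-miR-15a-3p: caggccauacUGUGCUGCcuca
mmu-miR-16-1-3p: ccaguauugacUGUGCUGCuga
mmu-miR-16-2-3p: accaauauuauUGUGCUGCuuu
mmu-miR-195a-3p: ccaauauuggcUGUGCUGCucc
mmu-miR-15b-3p: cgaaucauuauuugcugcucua
mmu-miR-322-3p: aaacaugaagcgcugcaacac
mmu-miR-497a-3p: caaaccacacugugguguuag
mmu-miR-503-3p: gaguauuguuuccacugccugg
The stretch was chosen after the values were seen. In the precursor hairpin it lies opposite the seed region of the guide strand. Of the 1608 miRNAs on the array with a sequence in the table, 4 held UGUGCUGC on their own strand, which was 0.249%, and these were the 4 detected opposite strands. Because strands that share a stretch can also bind each other's probes, the 4 calls may not be independent, and this was not tested.

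Of the motifs known from studies of sorting into exosomes, GGAG and CCCU were searched. GGAG was in 231 of the 1608 sequences (14.4%), of which 55 were detected on both arrays, and CCCU was in 188 (11.7%), of which 32 were detected. Of all 1608, 182 were detected on both arrays. No link of the motifs to detection was tested. Both were searched on the miRNA's own strand, none of the searched motifs contains another, and none of the 7 members or 8 opposite strands held either. No match says only that these letters are not in these sequences. Base composition differed between detected and undetected miRNAs, and its part in the family's calls was not tested. The median GC content was 59.1% in the detected miRNAs with a sequence and 52.2% in the others. Of miRNAs with a GC content from 40% to below 50%, 8.14% were detected, and 5 of the 7 members were in this group, including miR-15b-5p and miR-322-5p, both at 40.9%. Among miRNAs at 60% or above, 19.8% were detected, and no member was there. Below 40%, 4.04% were detected, among them miR-16-2-3p at 31.8%, and from 50% to below 60%, where miR-503-5p and miR-497a-5p were, 10.1%.

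Of the miRNAs outside the family, 4 on the array had AGCAGCA at bases 2 to 8, namely miR-195b, miR-6342, miR-6353 and miR-6419, and 0 of 4 were detected on either array. With a background of 11.5% over all miRNAs, this count is near the background and is no result about the seed. Their probe means lay between -1.36 and 2.0 intensity units and 11.4% of their spots were positive and significant. Among the miRNAs with a sequence in the table, miR-15b-5p was thus the only one with this seed that was detected on both arrays. The seed anywhere in the strand was in 16 of the 1608 sequences, or 0.995%, and 1 of them was detected.

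The list of cluster partners of the members held 11 strands, from miR-351, miR-542 and miR-450 of the X-linked cluster, from miR-497b and from miR-195b, which is also one of the 4 above and which the annotation placed on chromosome 2, away from the other members. None was detected on either array, a count of 0 in 11 that is likewise near the background of 11.5%. Their probe means lay between -2.19 and 4.07 intensity units, their probe signals between -0.73 and 1.34 times their error, and 12.6% of their spots were positive and significant. Among the listed strands of the X-linked cluster, miR-322-5p was therefore the only one that reached the threshold on any array.

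Counts for the guide strands of other large families are given for comparison. Of the let-7 family, known as a group of differentiation and tumour suppressor miRNAs, 9 of 11 were detected on both arrays, against the background of 11.5% over all miRNAs. Their median level was -1.91 among the detected and -2.13 over all 11. Of the miR-17 to miR-92 clusters, known as oncogenic miRNAs, 5 of 12 on the array were detected, namely miR-106b-5p, miR-19b-3p, miR-20a-5p, miR-20b-5p and miR-92a-3p, against the same background. Their median level was -3.60 among the detected and -6.52 over all 12. For the 7 members it was -2.23 for the one detected and -6.48 over all 7, against -1.46 for the 216 detected and -11.51 for all 1881 miRNAs. The medians of -3.60, -6.52, -6.48 and -11.51 depend on how spots at or below 0 are treated. Their distances have no meaning as folds. The -3.60 is the level of miR-20b-5p, which was detected on both arrays and had 3 such spots in replicate 2. The members of each family resemble one another, so their calls are not independent, and these counts are descriptions with no test.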

How the data were processed

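LLC-derived exosomes were measured on 2 one-colour Agilent mouse miRNA arrays. The authors deposited the fluorescence intensity of each spot from the scanner software, Feature Extraction 10.7.1.1 per the file headers (GEO's processing notes name 9.1), with the background subtracted and no normalization between arrays. A second table that the authors deposited gives 1 log2 value per miRNA and array. Its making was not given in the sources used here, so its scale and centring stay unknown. Its columns for the arrays hold an identical set of sorted values, which is what quantile normalization between arrays gives, and it served as an alternative only. The labels describe a kit for blood RNA and labelled cRNA, the paper's PCR methods another kit, and the sources do not settle which applies to the arrays.

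Controls and outlier spots were removed, and 0 spots were saturated. The 75th percentile among probes detected in both replicates was the divisor of each array, 50.2 intensity units in replicate 1 and 40.0 in replicate 2. Scaled signals that were not positive took the array's lowest positive value. After log2, a miRNA's level was the mean over its probes of their spot means. On the array of replicate 1, 253 miRNAs were detected, and 223 on that of replicate 2. The number of arrays limits the precision of every value. The opposite strands, cluster partners, let-7 and miR-17 to miR-92 lists, the motifs and the members were chosen with earlier results of these data known. All members were named, with strands of their clusters, miRNAs of the same seed, and the 3 miRNAs nearest in level to the highest detected member. miR-32-3p was named after its values were seen. Of the 1881 miRNAs, 1608 matched a RefSeq mature sequence by name (85.5%), among them 182 of the 216 detected. Alternatives covered the detection call, the scaling, normexp background correction with an offset of 50, the summary of probes, the deposited table and each replicate left out. The computation was tested on simulated data. Simulated miRNAs with signal had equally bright probes and were mostly brighter than the members. That test therefore says little about weak signals or unequal probes such as those of this family. Tools were numpy 2.4.6, pandas 2.3.3 and matplotlib 3.10.9 in Python 3.11.15, and R 4.3.3 with limma 3.58.1.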

Additional observations from a re-analysis of the deposited data

How the results depend on the processing

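The number of members called detected depended on the call. It was 1 by the software's call, 0 when a probe needed 50% or more of its spots well above background, 2 (miR-15b-5p and miR-322-5p) when these spots only needed to be positive and significant, 0 when every probe had to be detected, and 3 (miR-15a-5p, miR-15b-5p and miR-16-5p) above the lowest value of the deposited log2 table. With each replicate left out it was 1 to 2, and it was 2 with detection on at least 1 array, an alternative chosen after seeing the data. Over all miRNAs these calls gave 133, 478, 141 and 285 in place of 216, and 223 and 253 with replicate 1 and replicate 2 left out. For detection on at least 1 array, the background is fixed by the 253 miRNAs detected in replicate 1, the 223 in replicate 2 and the 216 on both, of 1881. No result about the members is read from that count of 2. For the opposite strands the count of 4 became 1 (miR-195a-3p) with spots well above background and 2 (miR-15a-3p and miR-195a-3p) with every probe detected, and stayed at 4 with the remaining calls and with each replicate left out. For the cluster partners it was 0 throughout. The let-7 count of 9 became 6 with spots well above background, 10 with spots positive and significant and 5 with every probe detected. The miR-17 to miR-92 count of 5 became 3, 8 and 1 under the same calls. With each replicate left out they were 9 and 5. The level of miR-15b-5p, -2.23, became -1.40 for its brightest probe and ran from -2.73 to -1.73 with each replicate left out. It was 1.98 with all probes in the 75th percentile, -0.58 with normexp and 1.38 in the deposited table. These settings change the scale, so their values are not comparable with -2.23. With all probes in the percentile only the divisor changed, which shifted all miRNAs of an array alike. Its rank of 177 became 126 by the software's total signal, which included an amount equal to the total of miR-15a-3p. By the sum of its own detected probes it was 175, and by the brightest probe 133. With replicate 1 left out it was 129 among 223 detected miRNAs, and with replicate 2 left out 214 among 253. Of 54 alternative levels of the other members, 27 moved by more than the spread between replicates, and changes of scale are among them. The 54 include the settings with a replicate left out, which could not move by this measure. With 2 arrays their shift is always smaller than the SD. Under each of the 9 alternatives that gave a level for every member, miR-15b-5p was the highest by mean level and miR-322-5p next. The total signals gave no level for members not detected on both arrays, so those alternatives were not run for them. No paired analysis was possible because there was 1 group. Intensities near those of the negative controls limit every statement on the undetected members.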

Other observations

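The software's total signal for a miRNA was not always the sum of the total signals of its own detected probes. For miR-15b-5p the total was 8.0 in replicate 1 and 9.58 in replicate 2, while its own detected probe gave 2.95 and 4.58. The excess of 5.05 and 5.00 equalled the total of miR-15a-3p on the same array within 0.1%. For miR-322-5p in replicate 2 the total was 80.8 and its own detected probe gave 2.07, a ratio of 39.1, and the excess of 78.7 equalled the total of miR-32-3p within 0.1%. For miR-16-2-3p in replicate 2 the total was 4.84 and its own probe gave 2.35, with an excess of 2.49 equal to the total of miR-16-1-3p. For the other strands of the family that were detected the total and the sum were equal. The main levels in the report use the spots of each miRNA's own probes and hold none of these totals. The alternative rank of 126 for miR-15b-5p, by the software's total signal, does hold them.

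In the deposited log2 table, whose lowest value of -3.32 is also its median, miR-15b-5p had 0.39 in replicate 1 and 2.37 in replicate 2, and miR-322-5p had -3.32 and 0.35. miR-15a-5p had -2.23 and -2.14 and miR-16-5p had -2.17 and -2.13, above the lowest value although neither was detected on either array. Of the 285 miRNAs above the lowest value in both columns, 45 were detected on neither array. miR-195a-5p, miR-497a-5p and miR-503-5p were at the lowest value in both columns. The detected opposite strands had 2.97 and 3.12 for miR-195a-3p, 1.94 and 2.49 for miR-15a-3p, 1.76 and 1.44 for miR-16-2-3p, and 0.51 and 1.72 for miR-16-1-3p.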
